A study of Mus musculus with 2 samples.

Results

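NF-kappaB is a family of paired transcription factors, and the 10 genes described here encode its subunits (Nfkb1, Nfkb2, Rela and Relb), proteins that hold it in check (Nfkbia, Nfkbib and Tnfaip3) and the kinase complex that releases it (Ikbkb, Ikbkg and Chuk). They were taken by symbol from a mouse table of 24532 genes, where each symbol had 1 row, so all 10 were found. The cells were cardiac myofibroblasts, the matrix-producing and contractile state of fibroblasts in injured heart, which had been isolated from hearts of C57BL/6 mice 3 days after myocardial infarction. One group received a control siRNA (siControl) and the other an siRNA against Bcat1 (siBcat1), the cytosolic aminotransferase of branched-chain amino acids, each at 12.5 nM with a lipid transfection reagent and followed by 72 hours of culture. Both groups therefore share the infarction, the culture and the transfection, and no untransfected cells were included. Each group had 1 RNA-seq library, so no difference below has a replicate check and no test was made. How many animals or cultures went into a library is not given in the sources used here.

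In resting cells, IkappaB proteins such as those of Nfkbia and Nfkbib bind NF-kappaB dimers and keep them in the cytoplasm. Cytokine and Toll-like receptors activate the IKK complex, which marks IkappaB for destruction and lets dimers of Rela and Nfkb1 products enter the nucleus. A slower branch, which needs the kinase encoded by Chuk, processes the Nfkb2 precursor and frees dimers with Relb. Several of the genes encoding the pathway's own brakes are themselves NF-kappaB targets, and much of the control lies in protein breakdown and location, which RNA levels do not show.

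Transcription start regions are shown for the 3 members whose stretch held the kappaB consensus, the site that NF-kappaB dimers recognise, because a shared site of this kind is a sequence feature that the choice of genes did not use. The consensus is 10 bases long and was searched on both strands in the 250 bases before each start; it opens with 3 guanines and closes with 2 pyrimidines and 2 cytosines. Matches can overlap, since the motif is nearly its own reverse complement. Sequences are from RefSeq (GRCm38.p6), 5′ to 3′ on the strand of the gene, with matches in capitals. The first 2 run from 130 bases before the start to the start, and the third is a site of 30 bases, since that stretch lies within an exon of another annotated transcript.
Nfkbia, chr12:55492648-55492777, minus strand: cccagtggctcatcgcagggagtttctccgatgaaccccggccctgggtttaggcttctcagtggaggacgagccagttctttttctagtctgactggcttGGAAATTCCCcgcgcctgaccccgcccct
Tnfaip3, chr10:19015411-19015540, minus strand: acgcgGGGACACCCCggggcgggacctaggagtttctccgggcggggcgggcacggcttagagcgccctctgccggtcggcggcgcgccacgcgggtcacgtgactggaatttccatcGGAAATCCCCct
Nfkb2, chr19:46304693-46304722, plus strand: gtcacGGGAATTCCCCccctcggggggccg

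The Nfkbia match lay 29 to 20 bases before the start, and Tnfaip3 had matches at 125 to 116 and at 12 to 3 bases. Nfkb2 had overlapping matches between 39 and 29 bases before the first of its RefSeq starts used here and another at 11 to 2 bases; further annotated starts of Nfkb2 had other matches. Of the 7 members with a RefSeq start sequence, 3 held a match before any of their starts, against 5.4% of 7746 measured genes counted the same way. Of all 32851 start regions of this length, taken singly, 3.9% held one. No match was found for Rela, Nfkbib, Chuk or Ikbkg, which says only that these letters are not in the windows searched. Sequences of Nfkb1, Relb and Ikbkb were not used here.

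The libraries held 127309329 counts for siControl and 104581819 for siBcat1, and 1 CPM (counts scaled to library size with TMM factors) stood for 131 and 101 counts. Bcat1 had 8891 counts in siControl and 99 in siBcat1, so the targeted gene was low in the library labelled siBcat1. All 12 fibroblast markers were measured in both libraries, from 79.2 to 11058 CPM in siControl and from 62.0 to 4345 CPM in siBcat1. They summed to 32281 CPM in siControl and 17309 CPM in siBcat1. Of the 12, 5 were at least 1.5-fold lower with siBcat1 and 1 higher, beside 25.6% and 17.6% of all measured genes. Of the macrophage markers, 6 of 14 were at 0 in both libraries, among them Ptprc and Adgre1, which define leukocytes and macrophages; a count of 0 allows up to 0.0228 CPM in siControl and 0.0296 CPM in siBcat1. The summed macrophage list was 10.5 CPM in siControl and 29.0 CPM in siBcat1, of which Lyz2 made up 5.46 and 21.3 CPM. All 5 neutrophil markers were at 0 in both, the 7 lymphocyte markers summed to 0.0152 and 0.0691 CPM, the 7 endothelial markers to 48.5 and 50.7 CPM, the 6 cardiomyocyte markers to 46.4 and 10.3 CPM, nearly all from Tnnt2, and the 5 smooth muscle and pericyte markers to 8.77 and 5.22 CPM. In bulk RNA, fewer cells of a type and less RNA per cell cannot be told apart.

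Folds between the libraries followed transcript length across the whole table, with a Spearman correlation of -0.652 over 9886 genes that share the same 2 libraries. For the 10 genes, each log2 fold (siBcat1 over siControl, in scaled counts) is therefore given with its length-adjusted value, from which the trend over all genes was subtracted. Ranges in brackets are 95% intervals, exact for folds, which cover counting error only and treat reads as independent molecules. The median log2 fold of the 9935 genes that averaged 5 CPM or more was -0.06. Upper-quartile scaling shifted every log2 fold by 0.13. The deposited TPM values (transcript abundance scaled for length and depth) shifted the median by -0.41, so small folds have a direction only relative to such shifts.

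**Figure D1:**
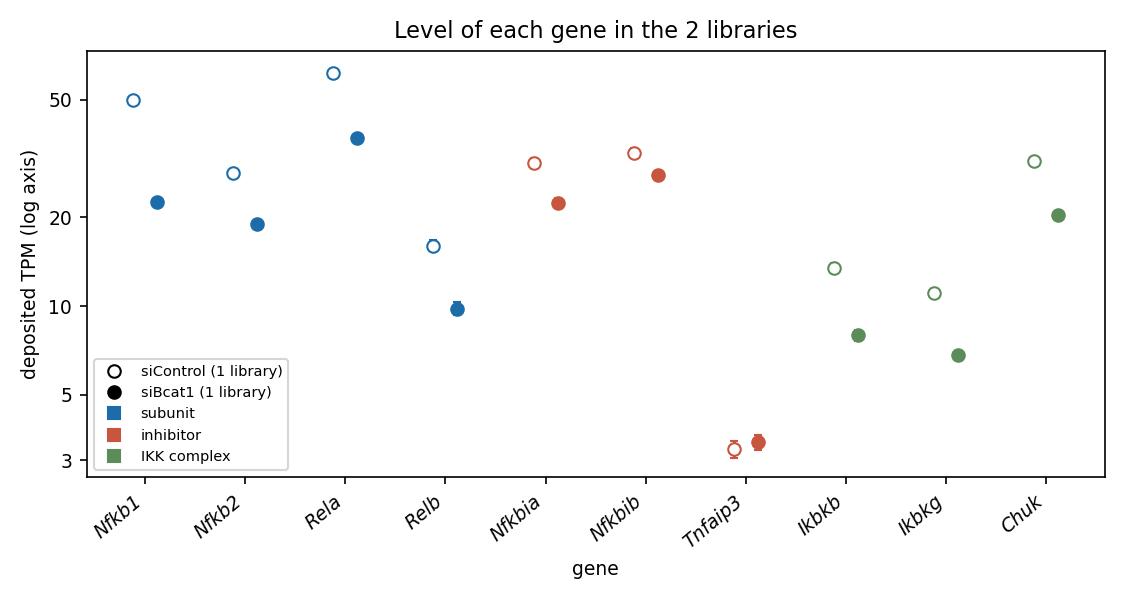
Deposited TPM of the 10 genes on a log axis, with open circles for the siControl library, filled circles for the siBcat1 library, bars for 95% counting intervals and colours for the role of the gene. Rela was the highest of the 10 genes in both libraries, with 61.8 and 37.1 TPM, and Tnfaip3 the lowest, with 3.27 and 3.46 TPM.

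All 10 genes were expressed in both libraries and passed the minimum of 5 CPM. Rela, which encodes the main activating subunit, had the highest level per length, with 61.8 TPM in siControl and 37.1 TPM in siBcat1. In siControl it was followed by Nfkb1 (49.8 TPM), Nfkbib (33.1), Chuk (31.1), Nfkbia (30.5), Nfkb2 (28.2), Relb (16.0), Ikbkb (13.5), Ikbkg (11.1) and Tnfaip3 (3.27). In siBcat1 the order after Rela was Nfkbib (27.7 TPM), Nfkb1 (22.6), Nfkbia (22.3), Chuk (20.4), Nfkb2 (18.9), Relb (9.81), Ikbkb (7.96), Ikbkg (6.81) and Tnfaip3 (3.46). The order of neighbours is not firm for Chuk and Nfkbia in siControl, or for Nfkb1 and Nfkbia in siBcat1, whose counting intervals overlapped. From siControl to siBcat1, Nfkb1 went from the second place to the third, and Nfkbib from the third to the second. Summed over roles, the subunits had 156 TPM in siControl and 88.4 TPM in siBcat1, the inhibitors 66.9 and 53.5 TPM, and the IKK complex 55.6 and 35.2 TPM. The ratio of siBcat1 to siControl was 0.567 for the subunits, 0.80 for the inhibitors and 0.633 for the IKK complex. On the TPM scale the median log2(TPM + 1) difference of the 8811 genes averaging 5 TPM or more was -0.47. That median is taken per gene, unlike these sums.

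In scaled counts, Nfkb1 was at least 1.5-fold lower with siBcat1, no gene was at least 1.5-fold higher, and 9 lay within 1.5-fold. Over all 9935 genes, 25.6% were at least 1.5-fold lower, 17.6% at least 1.5-fold higher and 56.8% within 1.5-fold. Of the genes past 1.5-fold, 40.8% were higher in scaled counts, 53% with upper-quartile factors and 8.93% with TPM. The median log2 fold of the 10 genes was -0.15, beside -0.06 for all genes. Length-adjusted, the median was -0.05, beside 0.00 for all genes, and 2 of the 10 (Tnfaip3 and Ikbkg) were at least 1.5-fold higher and none lower, beside 12.8% and 14.3% of 9886 genes. With deposited TPM, 9 members averaged 5 TPM or more. Of these, 5 were at least 1.5-fold lower and none higher, beside 43.4% and 4.26% of 8811 genes. The 5 were Nfkb1, Rela, Ikbkb, Relb and Ikbkg, with log2(TPM + 1) differences of -1.11, -0.72, -0.69, -0.65 and -0.63.

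**Figure D2:**
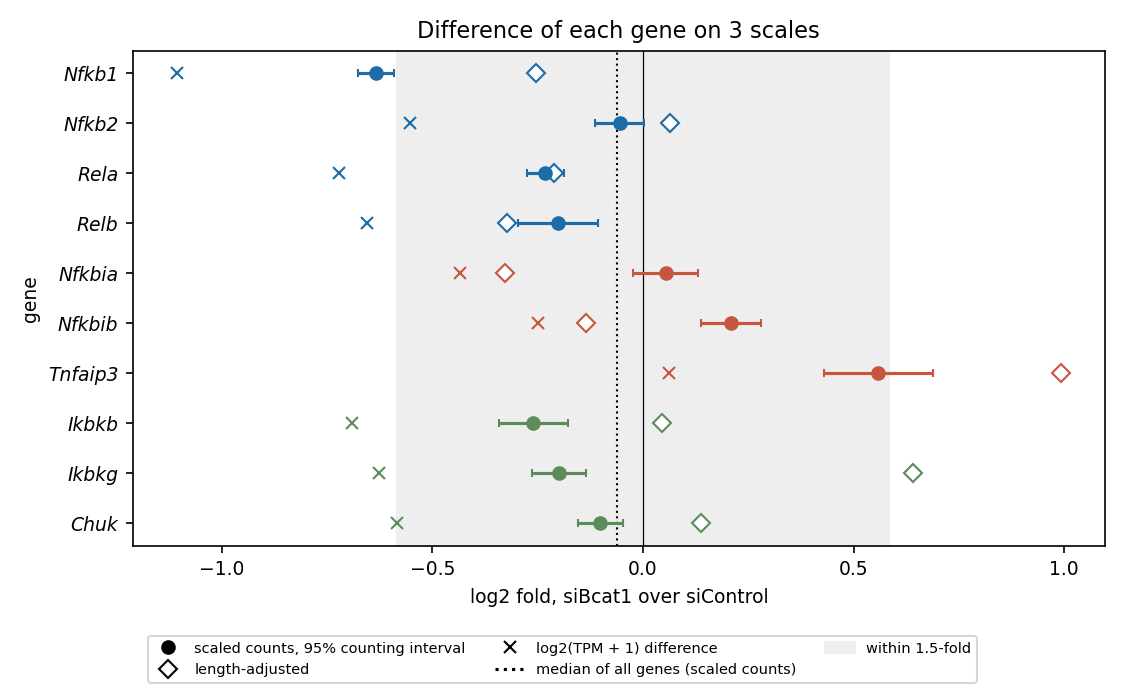
Log2 fold of siBcat1 over siControl for the 10 genes, with filled circles for scaled counts and their 95% counting intervals, open diamonds for length-adjusted values and crosses for the difference in log2(TPM + 1). Nfkb1 at -0.63 was the only gene outside 1.5-fold in scaled counts, and Tnfaip3 lay above 0 on all 3 scales.

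Among the subunits, Nfkb1 had the log2 fold farthest from 0 in scaled counts and TPM, and Relb the farthest once the length trend was removed. Nfkb1 (chromosome 3, 135584655 to 135691547, minus strand, GRCm38, 25 exons) encodes the precursor of the subunit that pairs with the Rela product. It had 12993 counts in siControl and 6452 in siBcat1, or 98.9 and 63.7 CPM. The log2 fold of Nfkb1 was -0.63 [-0.68 to -0.59], its length-adjusted value -0.26 and its log2(TPM + 1) difference -1.11. It was lower with siBcat1 in each of the 7 alternative scalings, but at -0.51 with upper-quartile factors it lay within 1.5-fold. Among genes with transcripts of 4090 to 4810 bases, which include Nfkb1, 41.3% were at least 1.5-fold lower.

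Rela (chromosome 19, 5637483 to 5648130, plus strand, 11 exons) had 10609 and 6963 counts, or 80.7 CPM in siControl and 68.7 CPM in siBcat1. Its log2 fold was -0.23 [-0.28 to -0.19], with -0.21 length-adjusted, and it was below 0 in all 7 alternatives. Nfkb2 (chromosome 19, 46304320 to 46312385, plus strand) encodes the precursor used by the slower branch of the pathway. It had 5561 and 4126 counts, or 42.3 and 40.7 CPM. Its log2 fold of -0.05 [-0.11 to 0.00] was 0.07 with upper-quartile factors and 0.06 length-adjusted, so it had no direction apart from the scaling. Its partner gene Relb (chromosome 7, 19606217 to 19629438, minus strand) had 2227 and 1493 counts, or 16.9 and 14.7 CPM. Relb had a log2 fold of -0.20 [-0.30 to -0.11] and a length-adjusted value of -0.32, and it was below 0 in all 7 alternatives.

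Within each library, the ratio of subunit levels does not depend on the scaling between libraries. Nfkb2 stood at 0.567 of Nfkb1 in siControl and at 0.837 in siBcat1, a log2 change of 0.56 [0.49 to 0.64] by counting error (0.32 as a difference of length-adjusted folds). Relb stood at 0.259 of Rela in siControl and 0.265 in siBcat1, a log2 change of 0.03 [-0.07 to 0.13] (-0.11 with the trend removed). The balance of Nfkb2 to Nfkb1 thus differed between the libraries beyond counting error, while the interval for Relb to Rela included 0 before the trend was removed.

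The inhibitor genes had log2 folds above 0 in scaled counts, but only Tnfaip3 kept that sign under every scaling. Nfkbia (chromosome 12, 55489410 to 55492647, minus strand, 6 exons) encodes IkappaB alpha, the inhibitor that cells remake after each activation. It had 3054 counts in siControl and 2443 in siBcat1, or 23.2 and 24.1 CPM. Its log2 fold of 0.05 [-0.02 to 0.13] included 0 within counting error, and it was -0.04 with library totals, -0.43 with TPM and -0.33 length-adjusted. Nfkbib (chromosome 7, 28758251 to 28767512, minus strand) encodes IkappaB beta. It had 3352 and 2986 counts, or 25.5 and 29.5 CPM. Its log2 fold was 0.21 [0.14 to 0.28], with -0.25 for TPM and -0.14 length-adjusted. These are the shortest transcripts among the 10 genes, with medians of 1578 bases for Nfkbia and 1652 bases for Nfkbib, and genes of 1226.5 to 1691 bases had a median log2 fold of 0.46.

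Tnfaip3 (chromosome 10, 19000910 to 19015657, minus strand) encodes a ubiquitin-editing enzyme that shuts off signalling from the tumour necrosis factor receptor. It had 916 counts in siControl and 1040 in siBcat1, although the siBcat1 library was the smaller one, and its level was 6.97 and 10.3 CPM. Its log2 fold was 0.56 [0.43 to 0.69], which passes 1.5-fold (0.58 on this scale) for part of the interval only. The value was 0.69 with upper-quartile factors, 0.47 with library totals, 0.06 in log2(TPM + 1) and 0.99 length-adjusted. It was above 0 in all 7 alternatives and past 1.5-fold in 3 of them, upper-quartile factors and both length corrections. In TPM the counting intervals, 3.06 to 3.49 in siControl and 3.25 to 3.67 in siBcat1, overlapped. Genes of its length, 4090 to 4810 bases, had a median log2 fold of -0.46, and 4.15% of them were at least 1.5-fold higher in scaled counts. It was the member with the lowest level, at 3.27 and 3.46 TPM. Lyz2, the macrophage marker named above, was higher with siBcat1 as well (717 and 2159 counts); so were Cd14 (202 and 326) and Cd68 (66 and 155), while Csf1r had 370 and 272 and Ptprc and Adgre1 had 0 in both. The part of these markers in the Tnfaip3 difference was not tested.

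**Figure D3:**
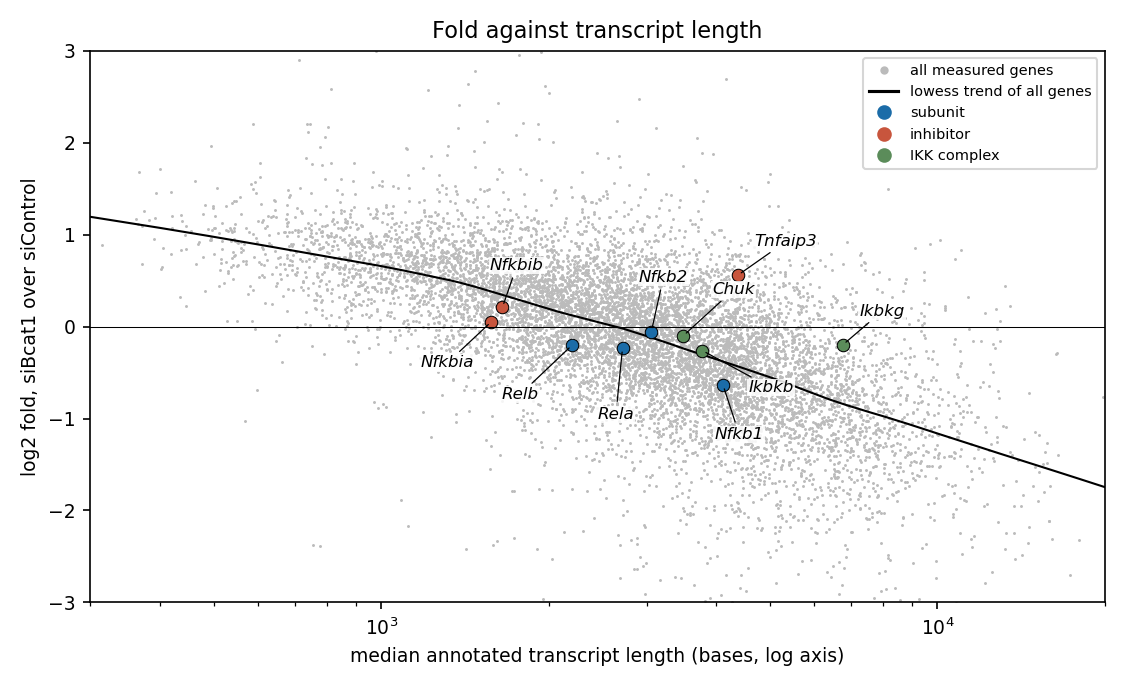
Log2 fold of siBcat1 over siControl against median annotated transcript length (log axis) for all measured genes in grey, with the lowess trend as a line and the 10 genes coloured by role; 67 genes lie outside the plotted range. Tnfaip3 and Ikbkg stand above the trend by 0.99 and 0.64, and the other 8 genes lie within 0.33 of it.

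Per TPM, the 3 inhibitors stood higher relative to Rela in the siBcat1 library, but with the length trend removed this held clearly for Tnfaip3 alone. Nfkbia stood at 0.494 of the Rela TPM in siControl and at 0.602 in siBcat1, a log2 change of 0.29 [0.20 to 0.37]. Nfkbib stood at 0.536 and 0.747 of Rela, a log2 change of 0.48 [0.40 to 0.56]. With the length trend removed, these changes were -0.12 for Nfkbia, which turned sign, and 0.08 for Nfkbib. Tnfaip3 stood at 0.0529 of Rela in siControl and 0.0932 in siBcat1, a log2 change of 0.82 [0.68 to 0.95], or 1.20 with the trend removed. Nfkbia relative to Nfkbib was 0.922 in siControl and 0.805 in siBcat1, a log2 change of -0.20 [-0.30 to -0.09] that was -0.19 with the trend removed.

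In scaled counts, the IKK genes had log2 folds between -0.26 and -0.10. Ikbkb (chromosome 8, 22659212 to 22706589, minus strand) encodes the kinase subunit that phosphorylates IkappaB proteins. It had 3092 counts in siControl and 1990 in siBcat1, or 23.5 and 19.6 CPM. Its log2 fold was -0.26 [-0.34 to -0.18], with 0.05 length-adjusted. Chuk (chromosome 19, 44073335 to 44107480, minus strand) encodes the other kinase subunit and had 6884 and 4947 counts, or 52.4 and 48.8 CPM. Its log2 fold of -0.10 [-0.15 to -0.05] was 0.03 with upper-quartile factors and 0.14 length-adjusted. Chuk had 2.31 times the TPM of Ikbkb in siControl and 2.56 times in siBcat1, a log2 change of 0.15 [0.05 to 0.25], or 0.09 with the trend removed.

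Ikbkg (chromosome X, 74393290 to 74453854, plus strand) encodes NEMO, the subunit that docks the kinases to ubiquitin chains. It had 4794 and 3219 counts, or 36.5 CPM in siControl and 31.8 CPM in siBcat1. Its log2 fold was -0.20 [-0.26 to -0.13], and its length-adjusted value was 0.64, because its matched transcripts had a median of 6760.5 bases and the trend stood at -0.84 there. That length is uncertain, since 6 matched transcripts ran from 3332 to 6918 bases. With a length implied by the ratio of counts to TPM, the adjusted value was 0.63. Exons of Ikbkg share 141 bases with G6pdx on the opposite strand, which had 29050 and 19334 counts, so some reads could have been assigned to either gene. Relative to Ikbkb, Ikbkg stood at 0.822 in siControl and 0.856 in siBcat1, a log2 change of 0.06 [-0.05 to 0.16], or 0.60 with the trend removed. Among the other members, Nfkbib shares 314 exon bases with Ccer2 on the opposite strand, which had 5 and 0 counts. Nfkb2 shares 77 exon bases with AC114539.1 on the opposite strand, which was not among the counted genes.

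In scaled counts, the other REL and IkappaB family genes were lower with siBcat1, apart from Nfkbid with 3 and 8 counts, and several were little expressed. A list of 7 other REL and IkappaB family genes also held Nkiras1 and Nkiras2, which encode small GTPase-like proteins and are not members of the family. Of the 7, 4 passed the minimum, with a median log2 fold of -0.65. Among these, 1 was at least 1.5-fold higher, 2 lower and 1 between, beside 17.6% higher and 25.6% lower of all genes. Length-adjusted, 1 was higher and 3 lower, beside 12.8% and 14.3% of all genes, with a median of -0.81. Bcl3, an atypical IkappaB that acts in the nucleus, had 1871 and 861 counts and a log2 fold of -0.74 [-0.86 to -0.63], or -0.999 length-adjusted. Nkiras2, a small GTPase-like protein that slows IkappaB breakdown, had -0.84 (6249 and 2692 counts), whereas its relative Nkiras1 had 0.60 (707 and 826 counts); length-adjusted, these were -0.996 and 0.59. Both overlap exons on the opposite strand, Nkiras1 with Rpl15 (114424 and 124971 counts) and Ube2e1, and Nkiras2 with Dnajc7 (5492 and 5067 counts), so their counts are uncertain. Nfkbie, which encodes IkappaB epsilon, had -0.56 (890 and 466 counts), or -0.62 length-adjusted. Below the minimum were Rel, the remaining subunit gene, with 394 and 100 counts and a log2 fold of -1.60 [-1.93 to -1.28] (-0.68 length-adjusted), Nfkbiz with 510 and 288 counts and -0.45, and Nfkbid with 3 and 8 counts, whose interval ran from -0.27 to 4.34.

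Receptors that feed the pathway were lower or within 1.5-fold in scaled counts. Of 13 listed receptors, 9 were measured, of which 3 were at least 1.5-fold lower and none higher, beside 25.6% and 17.6% of all genes, with a median of -0.28. Length-adjusted, 3 were lower and 1 higher, beside 14.3% and 12.8% of all genes, with a median of -0.30. The lower ones were Il1rap with -1.24 and Il1r1 with -0.91, which together form the interleukin 1 receptor, and Cd40 with -0.70 (length-adjusted -0.93, -0.30 and -1.08). The tumour necrosis factor receptor gene Tnfrsf1a had 301 and 231 CPM and a log2 fold of -0.38 (-0.52 length-adjusted). Of the 19 adaptors and kinases, 18 were measured, of which 6 were lower and none higher, a share of lower genes not far from the 25.6% of all genes, with a median of -0.47. With upper-quartile factors 3 were lower and 2 higher, beside 20.7% and 23.4% of all genes. Length-adjusted, 3 of 17 were lower and 1 higher, beside 14.3% and 12.8% of all genes, with a median of -0.31. Traf6, a ubiquitin ligase of the interleukin 1 branch, had -1.10, Irak1, a kinase of the same branch, -1.02, Ripk1 -0.73 and Tab3 -0.68. Length-adjusted, these were -0.34, -0.95, 0.07 and 0.10. With a length implied by the ratio of counts to TPM, they were -0.37, -0.71, -0.29 and 0.09. Ripk1 shares 241 exon bases with Serpinb6a on the opposite strand.

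All 14 ubiquitin regulators of the pathway were measured, of which 2 were lower (1 with DESeq2 size factors) and none higher, beside 25.6% and 17.6% of all genes, with a median of -0.14. Length-adjusted, 2 were lower and 2 higher, beside 14.3% and 12.8% of all genes, with a median of -0.11. Ube2v1, a partner of the enzyme that builds the ubiquitin chains sensed by NEMO, had 19682 counts with the control siRNA and 2916 with siBcat1. Its log2 fold was -2.38 [-2.44 to -2.32], or -2.76 length-adjusted. The annotation places another gene model on the same strand across most of Ube2v1 and part of the neighbouring Tmem189, so its counts are uncertain. Its partner enzyme gene Ube2n, named after its values were seen, had 156 CPM in both libraries and a log2 fold of 0.01. Fbxw11, part of a ligase that degrades IkappaB, lay at the threshold with -0.59, Itch had -0.56, and Rnf31, a linear chain ligase, 0.48. Length-adjusted, these were -0.24, 0.03 and 0.71. Rnf31 shares 123 exon bases with Irf9 on the same strand.

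Genes known as NF-kappaB targets went both ways. Of 33 listed targets, 18 were measured, of which 7 were at least 1.5-fold higher, 3 lower and 8 between, beside 17.6% higher and 25.6% lower of all genes, with a median of 0.27. Length-adjusted, 6 were higher and 1 lower, beside 12.8% and 14.3% of all genes, with a median of 0.17. With TPM, 3 were higher and 5 lower of 18, beside 4.26% and 43.4% of all genes, and the median was -0.23, beside -0.47. The protease gene Mmp3 had 2.22, and the chemokine genes Ccl7 and Ccl2 had 2.17 and 1.78, with 24270 and 28185 counts in siBcat1 (length-adjusted 1.94, 1.41 and 1.03). The lower ones were the complement gene C3 with -1.13 and, named after their values were seen, the adhesion gene Vcam1 with -0.76 and the stress gene Gadd45b with -0.75. Length-adjusted, C3 at -0.56 and Vcam1 at -0.53 lay within 1.5-fold, and Gadd45b had -1.27. Tnf, Il1a, Il1b, Csf2 and Cxcl2, also named after their values were seen, were at 0 in both libraries, within the limits of 0.0228 and 0.0296 CPM. Other targets below the minimum had counts. With a minimum of 1 CPM, 10 of 22 targets were at least 1.5-fold higher and 3 lower, beside 18.9% and 25.8% of all genes. With no minimum and a prior count of 0.5, 13 of 28 were higher and 4 lower, beside 23.7% and 29.6%. The summed macrophage list moved in the same direction as the higher targets (10.5 and 29.0 CPM), and its part in them was not tested.

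**Figure D4:**
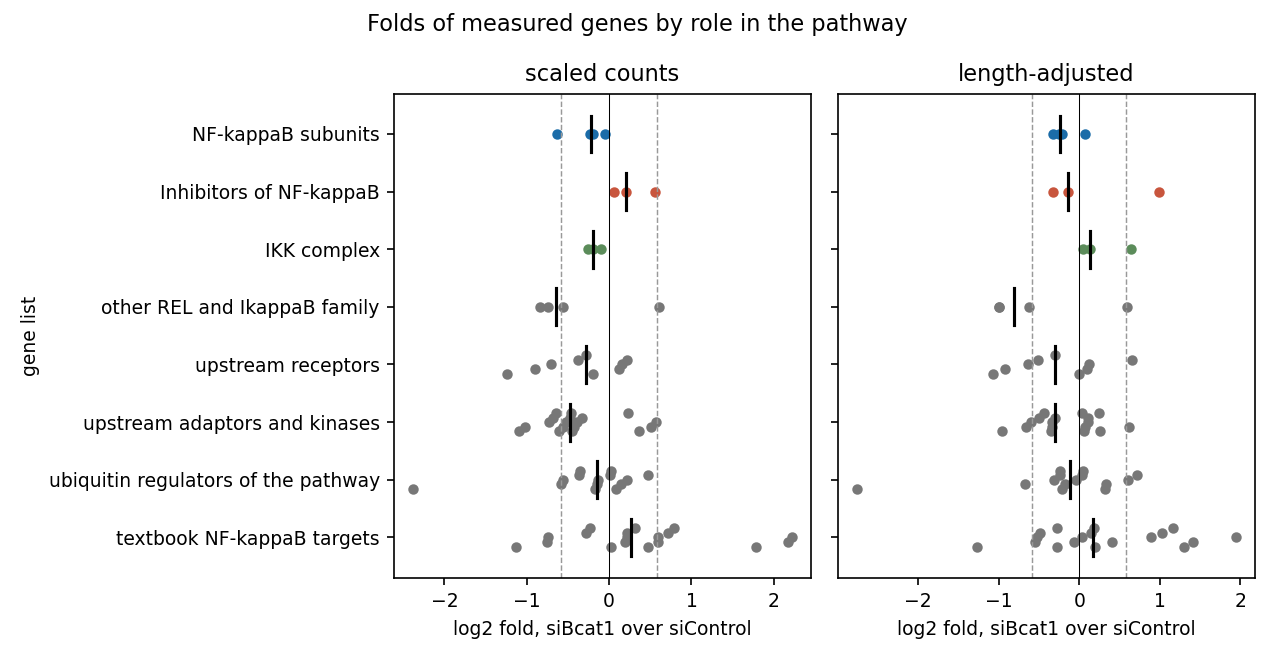
Log2 fold of siBcat1 over siControl for measured genes of each list (points) with the list's median (black bar), in scaled counts on the left and length-adjusted on the right; dashed lines mark 1.5-fold. The 10 genes, in colour, lie mostly between the dashed lines, while targets spread from -1.13 to 2.22 in scaled counts.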

How the data were processed

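RNA-seq of 1 siControl and 1 siBcat1 library was analysed, grouped by the treatment label. Per the submitters' processing notes, FastQC, Trimmomatic, HISAT2, StringTie and mm10 were used; no source used here gives their roles, settings or use of strand. Gene counts are raw whole numbers deposited by the authors, and the TPM values are the authors' own, as named in the deposited file headers. Counts were scaled with TMM factors (edgeR 4.0.16, R 4.3.3). Intervals are exact (Clopper-Pearson) 95% binomial intervals for folds, Poisson intervals for TPM and normal approximations for changes of ratios. Genes averaging 5 CPM or more count as measured. Lengths are medians of transcripts in GENCODE M21 (GRCm38), found through their RefSeq accessions; the lowess trend (fraction 0.3, 3 iterations, statsmodels 0.14.6) of log2 fold on log2 length was subtracted. Members and lists were chosen with earlier results of these data known. Named genes were all members, Bcat1 and the list of other REL and IkappaB genes with Nkiras1 and Nkiras2. Up to 4 measured genes per other list, ranked by absolute log2 fold, and markers at 0 or highest in their list were also named. The macrophage markers Cd14, Cd68 and Csf1r, all below the minimum, were named outside these rules. Alternatives were library totals, size factors from DESeq2 1.42.0, scaling by the upper quartile, TPM, both length corrections, other minima and other fold thresholds. The calculations were tested on simulated data.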

Additional observations from a re-analysis of the deposited data

How the results depend on the processing

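The 10 genes' count past 1.5-fold (1 lower, 0 higher) and median log2 fold (-0.15) held with DESeq2 size factors, with minima of 1 or 20 CPM (8 genes at the latter) and with no minimum (prior count of 0.5). The count also held with library totals, where the median was -0.24, and when the whole interval had to pass 1.5-fold. With upper-quartile factors 1 gene was higher, 0 were lower and the median was -0.022, beside 23.4% higher and 20.7% lower of all genes. With TPM, where 9 genes passed the minimum, 5 were lower at a pseudocount of 1 (median -0.63) and 6 at 0.1 (median -0.69), beside 43.4% and 44.9% of all genes. With the annotated length trend subtracted 2 were higher, 0 lower and the median was -0.045, beside 12.8% higher and 14.3% lower of all genes. With a length implied by the ratio of counts to TPM 2 were higher and 0 lower, beside 12.4% and 13.8% of all genes. The median was then -0.068. At 2-fold or 3-fold 0 genes were lower, beside 13% and 4.55% of all genes. Nfkb1, Rela and Relb were below 0 and Tnfaip3 above 0 in all 7 scalings and corrections tried per gene; each of the other 6 genes had both signs. No paired analysis was possible because each group has 1 library. Depth limits little here, since the least counted member had 916 and 1040 counts; the lack of replicates limits every difference.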

Other observations

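The kappaB consensus was also set against the folds of all measured genes. Of 7746 measured genes with a RefSeq start sequence, 418 (5.4%) held a match in the 250 bases before a start. Their median log2 fold was -0.17, beside -0.06 for the 7328 genes without a match, and the length-adjusted medians were 0.01 and 0.00. Among the 14 measured textbook targets with such a sequence, the 6 with a match (Il6, Csf1, Sod2, Bcl2l1, Ier3 and Irf1) had a median of 0.21 and the 8 without a match had 0.34. Length-adjusted, the medians of these targets were 0.09 and 0.30. With 1 library per group, none of these differences was tested.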
